A study of Mus musculus with 6 samples.

Results

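The comparison described here is that of irradiated with non-irradiated M2 macrophages, with 1 library each, RM2 and M2, out of the 6 libraries sequenced. The cells were RAW264.7, a mouse macrophage line that was started from a virus-induced tumour and grows without limit in culture. M2 cells received 20 ng/mL of the cytokine IL-4 for 24 h. RM2 cells received the same IL-4 treatment, then 10 Gy of gamma rays from a caesium source, and were incubated for 24 h more. The sources do not say whether the M2 cells were also kept for these further 24 h, so irradiation and time in culture cannot be told apart. The other 4 libraries were untreated cells (M0), cells given LPS and IFN-γ (M1) and both of these states after 10 Gy (RM0 and RM1). The labels name bone marrow as the tissue and RAW264.7 as the cell line. For each library RNA from 5 wells was pooled, so the spread between wells was not measured and no p-value is given for RM2 against M2.

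A gene was included when at least 1 of both libraries held 10 or more of its counts. This rule kept 11801 of the 24062 genes listed, and 9653 of them had at least 100 counts. Values are log2 ratios of the counts after scaling by TMM, a factor per library that sets aside the genes that differ most, with a prior count of 2 added. The libraries held 17894937 counts (M2) and 18154365 counts (RM2). The 95% interval of each log2 ratio was set from the Clopper-Pearson limits of the share of a gene's reads found in RM2, and it covers counting error only. A gene was called when it differed at least 2-fold. Where an adjusted p is given, it comes from edgeR's quasi-likelihood test with Benjamini-Hochberg adjustment of an irradiation effect shared by M0, M1 and M2 over all 6 libraries, in which the states stand in for replicates.

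Macrophages answer IL-4 through the IL-4 receptor and the transcription factor STAT6, which switches on genes for arginine metabolism, lectins and scavenger receptors. Ionizing radiation breaks DNA. Cells then activate ATM and p53, which stop the cell cycle and induce repair, growth arrest and death genes. Dividing cells held in arrest make less of the messages for DNA synthesis and mitosis. Macrophages can also answer DNA damage with cytokines, prostaglandins and growth factors.

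Between M2 and RM2 few genes differed by much. In all, 232 of 11801 genes were called (1.97%), of which 122 were higher in RM2 (1.03%) and 110 were lower (0.932%). With scaling to library totals and no TMM factor, 98 genes were higher and 149 lower. At 1.5-fold the count was 848 (7.19%), with 394 higher (3.34%) and 454 lower (3.85%). Most of the 2-fold calls were of scarce transcripts, since 165 of them had fewer than 50 counts in both libraries. Among genes with 100 or more counts only 43 of 9653 were called (0.445%), 26 higher (0.269%) and 17 lower (0.176%). The median size of the log2 ratio among these genes was 0.14. Of all 11801 genes 49.6% had a log2 ratio above 0 and 50.4% below 0, shares that belong beside the list counts given below. The same 2-fold rule called 180 genes in RM0 against M0 (1.54%) and 611 in RM1 against M1 (5.34%). The shared-effect test passed 55 of 11574 genes (0.475%), 40 higher (0.346%) and 15 lower (0.13%) after irradiation. Without M1 and RM1 it passed 523 genes (280 higher, 243 lower), and without M0 and RM0 it passed 129 (75 higher, 54 lower).

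**Figure D1:**
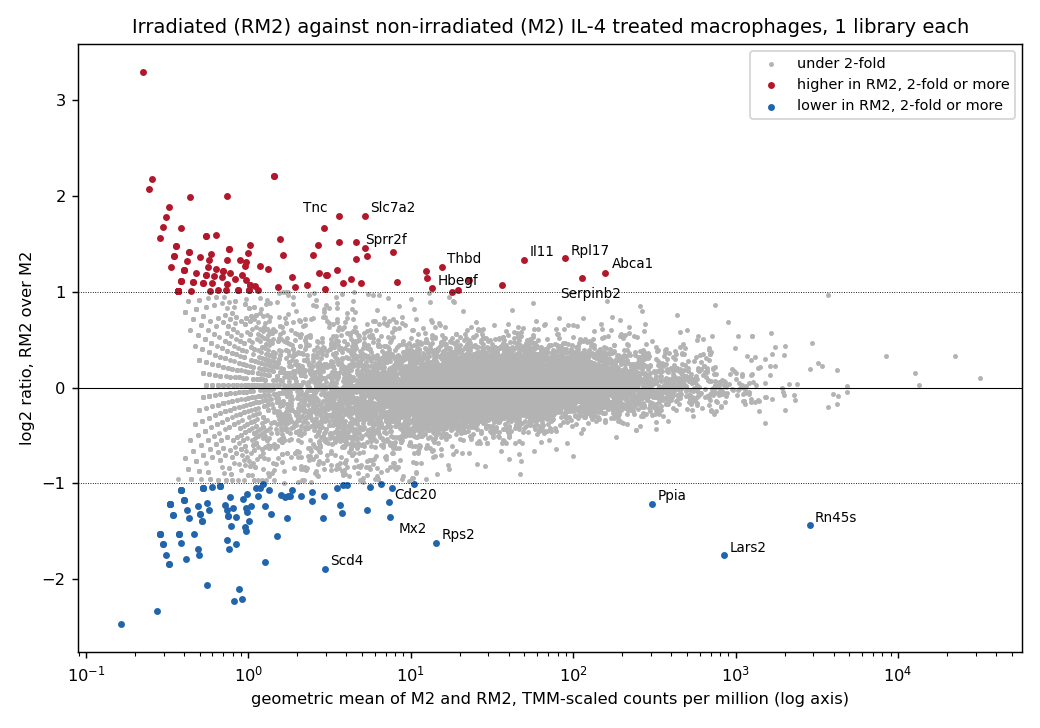
Log2 ratio of RM2 over M2 (vertical axis) against the geometric mean of both libraries in TMM-scaled CPM (horizontal log axis) for 11801 genes, 1 point each, with dotted lines at 2-fold. The 122 genes higher in RM2 are red and the 110 lower ones are blue, and most coloured points lie at the low-count left side.

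The labelled cell type was checked against marker lists. All 25 macrophage genes that were measured stayed within 2-fold, with a median log2 ratio of 0.13. Lyz2, the lysozyme of myeloid cells, had 406315 counts in M2 and 498305 in RM2. Of the 8 epithelial markers all were at 0 in both libraries. Among T and NK cell markers Lck alone was measured, with 225 and 237 counts. Among fibroblast markers 4 of 10 were at 0 in both libraries, and Dcn (decorin) had 114 and 177 counts. The neutrophil-associated gene S100a8 had 2846 and 3492 counts.

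Genes of cell division were lower in RM2. Of 65 measured genes for mitosis and the G2/M phase, 62 had a log2 ratio below 0, against 50.4% of all genes. The median was -0.61, where that of all genes was near 0. At 1.5-fold 35 of them were lower, against 3.85% of all genes, and 0 higher. At 2-fold 5 were lower, against 0.932% of all genes. All 65 listed genes passed the count filter, 62 of them with 100 or more counts.

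Birc5 encodes survivin, a member of the chromosomal passenger complex that also inhibits cell death. It had 169 counts in M2 and 67 in RM2, a log2 ratio of -1.28 (-1.73 to -0.89). Kif2c, a kinesin that takes apart microtubule ends at the centromere, had 113 and 46 counts, a log2 ratio of -1.23 (-1.79 to -0.76). Cdc20, the activator of the anaphase-promoting complex, had 226 and 95 counts, a log2 ratio of -1.20 (-1.58 to -0.87). The other called members were Troap, a spindle protein, with 50 and 21 counts, and Cdca3, a trigger of mitotic entry, with 162 and 76 counts. Next in order, named after their values were seen, came Kif18b, Ccna2, Ube2c and Espl1, each between -0.97 and -0.95. Ccnb1, the cyclin that drives mitotic entry, had 404 and 210 counts, a log2 ratio of -0.91. In each of these genes the irradiated library was the lower.

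The members on the other side were Cks2 (0.14), Kif23 (0.09) and Psrc1 (0.04), log2 ratios that are all close to 0. Wee1, a member of the DNA damage list and the kinase that holds back entry into mitosis, had 144 counts in M2 and 70 in RM2, a log2 ratio of -0.99 (-1.44 to -0.59). Genes that drive mitosis and a gene that holds it back were both lower.

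The same list had a median of -0.64 in RM0 against M0 and of -0.14 in RM1 against M1. Cdc20 had log2 ratios of -1.03 in the untreated state and -1.23 in the M1 state, and its shared effect passed the test with an adjusted p of 0.0217. Without M2 and RM2 its adjusted p was 0.102. Ube2c passed as well, with an adjusted p of 0.0266. Birc5 did not, with an adjusted p of 0.0944. The M1 and RM1 libraries held few reads of some of these genes, for example 3 of Kif2c in M1 and 6 in RM1.

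Promoters of many mitotic genes carry a CCAAT box, bound by the factor NF-Y, and the element TTTGAA, the cell cycle homology region at which the DREAM and MuvB complexes hold genes silent outside of G2 and mitosis. The 250 bases before the start were read from RefSeq windows on GRCm38.p6 for the mitotic genes with the lowest log2 ratios and 100 or more counts, to show the reader which letters these promoters hold. TTTGAA and CCAAT, on either strand, are in capitals. Birc5 (chr11:117848987-117849236, plus strand) and Cdc20 (chr4:118437344-118437593, minus strand) are shown 5′ to 3′, with the last base next to the start. The window found for Kif2c lies 3852 bases from the start listed in the tables and is not printed.
Birc5: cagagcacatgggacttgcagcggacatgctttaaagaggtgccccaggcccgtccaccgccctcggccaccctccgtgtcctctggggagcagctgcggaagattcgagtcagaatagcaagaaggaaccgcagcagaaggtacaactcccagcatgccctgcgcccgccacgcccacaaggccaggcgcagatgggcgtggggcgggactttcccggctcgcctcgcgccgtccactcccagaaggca
Cdc20: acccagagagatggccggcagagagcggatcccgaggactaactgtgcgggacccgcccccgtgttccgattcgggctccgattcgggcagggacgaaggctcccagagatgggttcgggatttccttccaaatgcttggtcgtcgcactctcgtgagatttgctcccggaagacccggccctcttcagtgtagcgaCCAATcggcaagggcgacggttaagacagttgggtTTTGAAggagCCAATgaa

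In Cdc20 the TTTGAA run covered bases 18 to 13 before the start, and CCAAT stood at bases 53 to 49 and 8 to 4. Birc5 held neither run of letters in this window. A window was found for 55 of the 65 mitotic genes. TTTGAA was in 20 of these 55 windows (36.4%), against 16% of all 32851 windows in the table. CCAAT was in 43 (78.2%) against 33.8%, and both were in 18 (32.7%) against 5.55%. A window counts for a motif with a match on either strand, and matches of different motifs may overlap. These are counts of letters and not of bound sites.

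Genes of DNA replication and S phase were lower as well, though by less. Of 57 measured genes 54 had a log2 ratio below 0, and the median was -0.48. At 1.5-fold 20 were lower, against 3.85% of all genes, and 0 higher. No member differed 2-fold. Mcm5, a subunit of the MCM helicase that unwinds DNA at replication origins, had 1305 counts in M2 and 682 in RM2, a log2 ratio of -0.90 (-1.04 to -0.77). Mcm10, which helps to load the replication machinery, had 284 and 143 counts (-0.95, interval -1.26 to -0.66). Rpa2, a subunit of the complex that coats single-stranded DNA, had 466 and 252 counts (-0.85), and Gins2, a partner of the helicase, had 222 and 121 counts (-0.83). Above 0 were Cdc7 (0.13), Gins3 (0.06) and Dbf4 (0.04), of which Cdc7 and Dbf4 form the kinase that fires origins.

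In this list 6 genes passed the shared-effect test, all lower after irradiation. They were Mcm5 (adjusted p = 0.00754), Dut (0.0146), Mcm6 (0.022), Mcm2 (0.0266), Rpa2 (0.039) and Mcm3 (0.0418), where Dut is the enzyme that clears dUTP. For Rpa2 the adjusted p was 0.0734 without M0 and RM0 and 0.276 without M2 and RM2. Median log2 ratios were -0.56 in the untreated state and -0.32 in the M1 state. The E2F sequence TTTCCCGC was in 5 of 47 windows of this list (10.6%) and in 0.895% of all windows, again an unlike set.

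Of 61 genes for DNA damage signaling and repair 39 lay below 0, with a median of -0.12. At 1.5-fold 7 were lower and 0 higher, against 3.85% and 3.34% of all genes. The called member was Exo1, a nuclease of resection and mismatch repair, with 88 and 38 counts (-1.14, interval -1.77 to -0.62). Bard1, which forms a ubiquitin ligase in homologous repair, had 74 and 37 counts (-0.93).

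Of 39 measured targets of p53 none reached 2-fold, and 1 passed the count filter through RM2 alone. At 1.5-fold 6 of them were higher (15.4%, against 3.34% of all genes) and 0 lower, and the median was 0.15, with 26 above 0 where 49.6% of all genes were. Cdkn1a, which encodes the arrest protein p21, had 11102 counts in M2 and 11324 in RM2, a log2 ratio of 0.06 (0.02 to 0.10). In the untreated state its log2 ratio was 0.40, and the M2 state minus the untreated state gave -0.34 (-0.39 to -0.29). Mdm2, the ubiquitin ligase of p53, had 3673 and 5344 counts (0.57, interval 0.51 to 0.63). Ccng1, cyclin G1, had 2710 and 4416 counts (0.74, interval 0.67 to 0.81). The death gene Bax had 3392 and 2945 counts (-0.17).

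Among p53 targets the largest ratios with 50 or more counts were those of Lif, Eda2r, Ccng1 and Fas. Lif, a cytokine of the IL-6 family, had 2376 and 4353 counts (0.90, interval 0.83 to 0.98). Ccng1 and Lif passed the shared-effect test, with adjusted p-values of 0.0146 and 0.00785. Eda2r, a member of the TNF receptor family, had 93 and 161 counts (0.81), and the death receptor Fas had 170 and 274 (0.71). The 4 receptor, cyclin and cytokine genes were higher in RM2, while the arrest gene Cdkn1a was nearly level.

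Replication-dependent histone genes stood apart from the replication genes. Their messages are made in S phase and mostly end in a stem-loop and not in a poly(A) tail. All 17 of 55 listed genes that were measured had a log2 ratio above 0, with a median of 0.64. At 1.5-fold 11 were higher, against 3.34% of all genes. Of the 17, 1 (Hist1h1b) passed the count filter through RM2 alone. Hist1h2be had 45 counts in M2 and 106 in RM2 (1.23, interval 0.75 to 1.81). Hist1h1e, a linker histone, had 52 and 111 (1.09), and Hist1h3d had 12 and 28 (1.12). The most abundant, Hist1h1c, had 3578 and 5439 counts (0.64, interval 0.58 to 0.70). The median was 0.76 in the untreated state and -0.04 in the M1 state, and no member passed the shared-effect test. Copies of these genes are near-identical, so reads may be split between them.

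**Figure D2:**
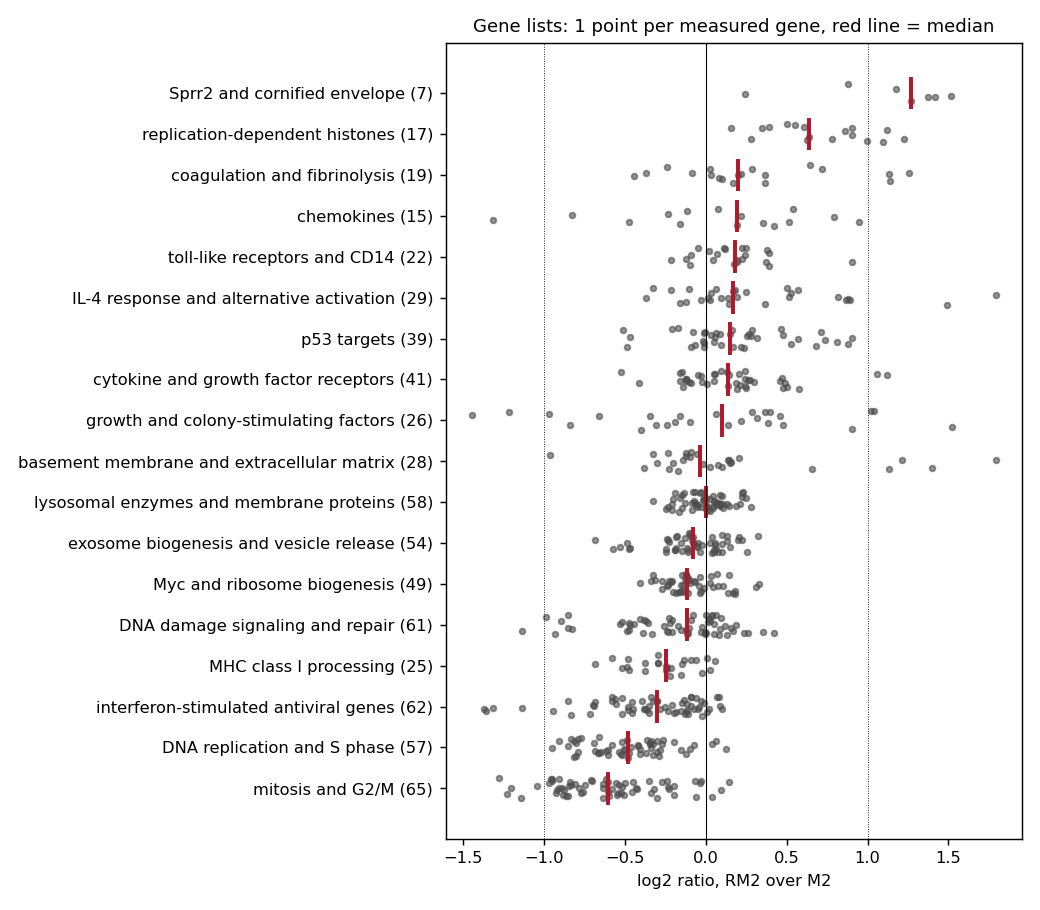
Log2 ratio of RM2 over M2 (horizontal axis) for the measured genes of 18 lists, with 1 point per gene, the number of genes in brackets and a red line at the median. Mitosis (median -0.61) and S phase (median -0.48) lie to the left of 0, histones (0.64) and the list of Sprr2 and cornified envelope genes (1.27) to the right, and lysosomal genes around 0.

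Reads of ribosomal RNA differed in the same states as the histone genes. Rn45s, the precursor of ribosomal RNA, took 0.531% of counts in M2 and 0.189% in RM2, a log2 ratio of -1.44. It took 0.537% in M0 and 0.167% in RM0, and 0.0972% and 0.107% in M1 and RM1. Lars2, the mitochondrial leucyl-tRNA synthetase, had 31635 counts in M2 and 9193 in RM2 (-1.75, interval -1.79 to -1.72). It had 26008 and 6397 in M0 and RM0, and 2038 and 1818 in M1 and RM1. Lars2 is given here because its counts differed most in the same states as those of Rn45s. Whether its reads come from the synthetase message was not tested. What part these differences in Rn45s and Lars2 between the libraries had in the other results was not tested. The protocol names enrichment or depletion of mRNA without saying which was used.

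Ratios also depended on base composition. Across 11736 genes with a known transcript, Spearman's rho of the log2 ratio with GC content was -0.382, as a description, since these genes share both libraries. The median log2 ratio was 0.21 for genes with 35 to 40% GC and -0.17 for genes with 60 to 65% GC. With this trend removed the median was -0.69 for mitosis, -0.47 for S phase, 0.75 for histones, 0.20 for the IL-4 list and -0.34 for antiviral genes.

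**Figure D3:**
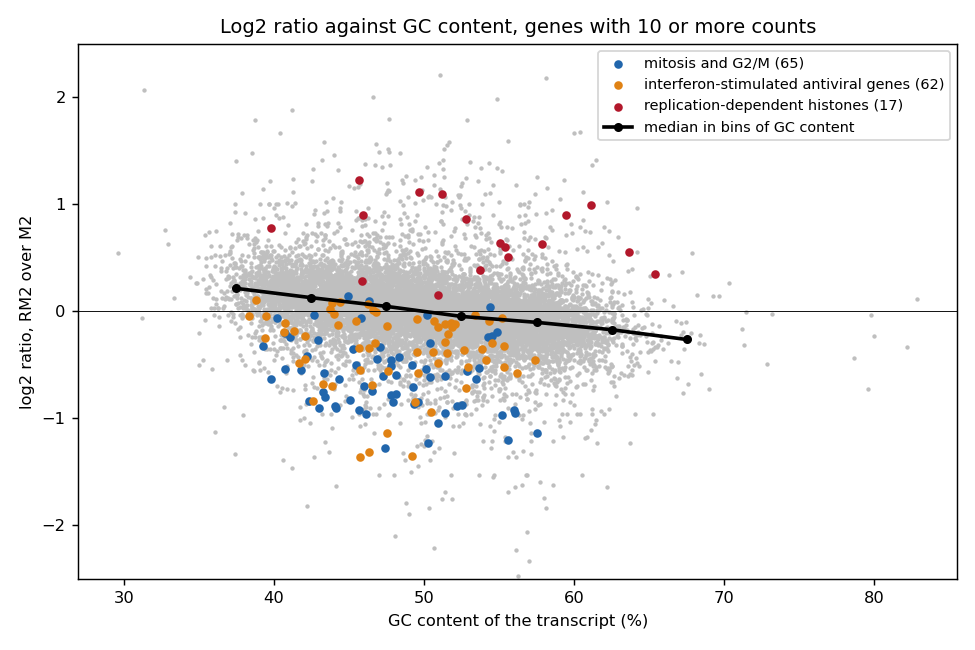
Log2 ratio of RM2 over M2 (vertical axis) against transcript GC content in percent (horizontal axis), with 1 grey point per gene, coloured points for 3 lists and black points for the median in bins of GC content. The black line goes from 0.21 at 35 to 40% to -0.17 at 60 to 65%, while mitotic genes (blue) lie mostly below it and histones (red) above it. Points beyond 2.5 on either side are not drawn.

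Genes of the IL-4 response were mostly somewhat higher after irradiation. Of 44 listed genes 29 were measured and 9 were at 0 in both libraries. Of the 29, 22 had a log2 ratio above 0, against 49.6% of all genes, and the median was 0.17. At 1.5-fold 3.34% of all genes were higher, and of the 29 genes 6 were higher and 0 lower. The medians of the same genes were 0.08 in RM0 against M0 and 0.01 in RM1 against M1. Of the 29, 1 (Mrc1) passed the count filter through RM2 alone.

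Slc7a2 (chr8:40862367-40922070, mm10) encodes the cationic amino acid transporter that brings arginine into macrophages. It had 55 counts in M2 and 192 in RM2, a log2 ratio of 1.80 (1.40 to 2.30) and, with Tnc (1.79), among the highest of genes with 100 or more counts. It had 11 counts in M0 and 21 in RM0, a log2 ratio of 0.83, and the M2 state minus the untreated state gave 0.96 (-0.17 to 2.10). Arg1 (chr10:24915207-24927470), the arginase that splits arginine, had 31 counts in M2 and 89 in RM2, a log2 ratio of 1.49 (0.95 to 2.19). It had 0 counts in M0 and 2 in RM0, so reads of Arg1 lay mostly in both IL-4 libraries, and the M2 state minus the untreated state gave 0.53 (-2.98 to 4.04). Both intervals of these differences include 0. The transporter and the enzyme of arginine use were thus both higher in RM2 than in M2.

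Cish, a STAT-induced inhibitor of cytokine signaling, had 195 and 356 counts (0.89, interval 0.64 to 1.16). Clec7a, the β-glucan receptor dectin-1, had 847 and 1526 counts (0.88, interval 0.76 to 1.00). Cd36, a scavenger receptor for oxidized lipids, had 11165 and 19929 counts (0.87, interval 0.83 to 0.90). For Cish and Clec7a the log2 ratios in the untreated state were -0.03 and 0.04, which differ from those in the M2 state by 0.92 (0.44 to 1.40) and 0.84 (0.61 to 1.06). For Cd36 the difference was 0.46 (0.40 to 0.51). These are differences between single pairs of libraries with intervals from counting error alone.

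The receptor chains, a kinase and the transcription factor of the pathway had log2 ratios between -0.16 and 0.17. Il4ra, the ligand-binding chain, had 600 and 546 counts (-0.10, interval -0.27 to 0.07). Stat6 had 3559 and 3556 counts (0.03), and Jak1, a kinase bound to the receptor, had 4501 and 4945 (0.17). The partner chains Il2rg, with 2162 and 1942 counts (-0.12), and Il13ra1, with 825 and 724 (-0.16), were slightly lower. Stat6, Jak1, Il2rg and Il13ra1 were named after their values were seen.

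Several commonly used M2 markers were not measurable or had few counts. Retnla and Chil3 had 0 counts in both libraries, which allows up to 3 counts in each. Ccl17 had 1 and 0 counts. Mrc1, which encodes the mannose receptor CD206, had 6 and 12 counts (0.82, interval -0.49 to 2.73). It had 10 counts in M0 and 50 in M1, so Mrc1 was not higher in M2 than in M0 (log2 ratio -0.60). Ccl22, a chemokine of T cells, had 590 and 827 counts (0.52, interval 0.37 to 0.67), and 767 counts in M0.

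Set beside the effect of IL-4 itself, Slc7a2 was higher in M2 than in M0 by 2.09 on the log2 scale and in RM2 than in RM0 by 3.05. For Cish these log2 ratios were 0.96 and 1.88, for Clec7a 0.90 and 1.73, and for Cd36 0.70 and 1.16. Over the 29 genes the median was 0.10 in both contrasts, with 4 and 7 genes higher at 2-fold. The contrasts share libraries with RM2 against M2, so the values are given as descriptions. After LPS and IFN-γ, in M1, Slc7a2 had 165 counts, Cd36 12800 and Cish 218, against 55, 11165 and 195 in M2. The TMM-scaled library size of M1 was the smaller (14785772 against 20284103). Higher levels of Slc7a2, Cd36 and Cish were thus not particular to IL-4, while Clec7a was lower in M1 (430 against 847 counts).

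**Figure D4:**
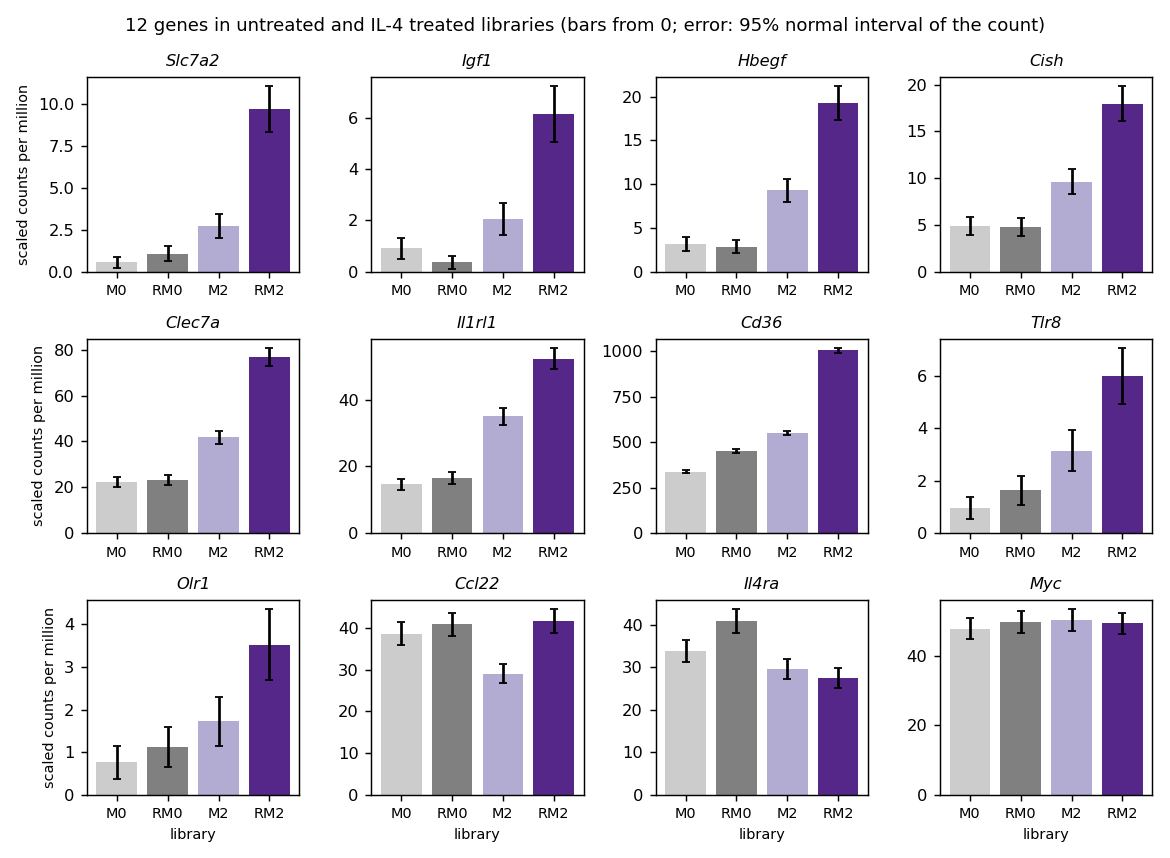
TMM-scaled CPM (vertical axes, from 0) of 12 genes in the M0, RM0, M2 and RM2 libraries, with error bars of the 95% normal interval of the count. Slc7a2, Igf1, Hbegf, Cish and Clec7a are low in M0 and RM0, higher in M2 and highest in RM2, while Il4ra and Myc show no such order. The 12 genes were chosen after their values were seen.

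Growth factors varied in both directions. Of 26 measured growth and colony-stimulating factors 3 were higher and 2 lower at 2-fold, against 1.03% and 0.932% of all genes. Igf1, insulin-like growth factor 1, had 42 counts in M2 and 122 in RM2 (1.52, interval 1.05 to 2.11). In the untreated state it had 18 and 7 counts (-1.13, interval -2.85 to -0.02). Hbegf, a ligand of the EGF receptor, had 189 and 382 counts (1.04, interval 0.79 to 1.31), against a log2 ratio of -0.12 in the untreated state and -0.14 in the M1 state. Pgf, placental growth factor, had 275 and 549 counts (1.02, interval 0.82 to 1.24). With scaling by library totals Hbegf and Pgf were under 2-fold, at log2 ratios of 0.99 and 0.97. The lower members were Egf, with 26 and 8 counts (-1.44, interval -3.02 to -0.48), and Bmp1, with 10 and 3 counts (-1.21, interval -4.20 to 0.25). Both passed the count filter through M2 alone, and the interval of Bmp1 includes 0.

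The cytokine genes with the highest ratios included Il11 and Il33. Il11, a cytokine of the IL-6 family, had 634 and 1571 counts (1.34, interval 1.21 to 1.48) and passed the shared-effect test (adjusted p = 0.022). Il33, an alarmin, had 163 and 373 counts (1.22, interval 0.96 to 1.501), and 235 and 1093 counts in M0 and RM0. Ptgs2 encodes cyclooxygenase-2, which makes prostaglandin precursors. It was among the most abundant transcripts, with 53419 counts in M2 and 102108 in RM2 (0.97, interval 0.95 to 0.98, shared effect adjusted p = 0.0306). The Ptgs2 adjusted p was 0.0611 without M0 and RM0 and 0.116 without M2 and RM2. Il1b had 1700 and 2601 counts (0.64, adjusted p = 0.0146), and Il6 had 138 and 227 (0.74, interval 0.44 to 1.07).

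Of 41 measured receptors for cytokines and growth factors 2 were higher at 2-fold, against 1.03% of all genes. Tnfrsf9, the costimulatory receptor 4-1BB, had 312 and 667 counts (1.12, interval 0.93 to 1.33, adjusted p = 0.0112). Il1r1, the signaling receptor of IL-1, had 20 and 43 counts (1.06, interval 0.34 to 1.98), and a log2 ratio of 0.95 with the GC trend removed. Of 23 M1 and inflammatory markers 4 were higher and 1 lower at 1.5-fold, against 3.34% and 3.85% of all genes. The median was near 0, with 12 of the 23 below 0. The higher ones were Ptgs2, Il6, Il1b and Cd80, a costimulatory ligand with 1608 and 2482 counts (0.66). The lower one was Ccr7, a chemokine receptor with 18 and 10 counts, named after its values were seen.

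The Sprr2 genes code for small proline-rich proteins of the cornified envelope of skin. They were listed together with other genes of this envelope. Of 24 listed genes 7 were measured, 6 of them Sprr2 genes, and 9 were at 0 in both libraries. All 7 had a log2 ratio above 0 and the median was 1.27. The 5 members that were higher at 2-fold were Sprr2 genes, while the transglutaminase Tgm1 had a log2 ratio of 0.24. Sprr2f had 54 and 155 counts (1.52, interval 1.10 to 2.03), Sprr2d had 95 and 252 (1.42) and Sprr2g had 66 and 171 (1.38). The adjusted p-values of their shared effect were 0.00664, 0.00754 and 0.00601. In the untreated state the log2 ratios were 1.84, 1.38 and 1.25, and in the M1 state 1.12, 0.86 and 1.17. Reads may be shared among these neighbouring, similar genes, so the values of single members are uncertain.

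Coagulation and fibrinolysis genes included 3 that were higher at 2-fold, against 1.03% of all genes. At 1.5-fold 5 of 19 were higher, against 3.34% of all genes, and 0 lower, with 2 of the 19 measured through RM2 alone. Thbd, thrombomodulin, which turns thrombin from a clotting into an anticlotting enzyme, had 202 and 476 counts (1.26, interval 1.03 to 1.51). Serpinb2, the plasminogen activator inhibitor PAI-2, had 1539 and 3319 counts (1.14, interval 1.05 to 1.23). Thbs1, the adhesive glycoprotein thrombospondin-1, had 57 and 125 counts (1.13, interval 0.70 to 1.64). Their shared-effect adjusted p-values were 0.0475, 0.00754 and 0.0266. With DESeq2 the adjusted p of Thbd was 0.262. Plau, the plasminogen activator uPA, lay on the other side, with 1537 and 1108 counts (-0.44).

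With the GC trend removed Serpinb2 had a log2 ratio of 0.94, under 2-fold. In the M1 state the log2 ratios of Thbd, Serpinb2 and Thbs1 were 3.51, 1.70 and 2.76. The M2 state minus the M1 state gave -2.25 (-2.88 to -1.62) for Thbd and -0.56 (-0.67 to -0.46) for Serpinb2.

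Of 28 measured genes of 66 for basement membrane and matrix 4 were higher at 2-fold, against 1.03% of all genes. Of the 28, 2 were measured through RM2 alone. These were Col4a6 and Olfml2b, both among the 4, so the filter itself favoured part of this count. The median was -0.03, so the list as a whole was level. Tnc (chr4:63959785-64047015), the matrix glycoprotein tenascin-C, had 38 counts in M2 and 134 in RM2 (1.79, interval 1.32 to 2.41). Its ratio was 0.86 in the untreated state and 0.44 in the M1 state. Col4a6, a basement membrane collagen chain, had 8 and 21 counts (1.21, interval 0.19 to 2.81), and Olfml2b had 6 and 19 (1.40). The remaining called member was Thbs1, described above, with 57 and 125 counts. Timp1, an inhibitor of matrix metalloproteinases, belongs to the separate list of matrix proteases and inhibitors. It had 16 and 40 counts (1.24), against 11 and 4 in M0 and RM0. Of the 16 measured genes of that list 1 was higher and 1 lower at 2-fold, against 1.03% and 0.932% of all genes. The lower one was Mmp23, with 14 and 3 counts (-1.62), measured through M2 alone.

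Abca1 exports cholesterol to apolipoprotein A-I and is induced by oxysterols. It had 2096 and 4703 counts (1.20, interval 1.12 to 1.27) and passed the shared-effect test (adjusted p = 0.00754). Other sterol genes were level, with 0 of 29 genes of cholesterol synthesis past 1.5-fold and a median of 0.03. Scd4, a fatty acid desaturase, had 116 counts in M2 and 29 in RM2 (-1.89, interval -2.61 to -1.37), but 43 in M0 and 179 in RM0. An irradiation term of the M2 state alone, tested in edgeR against an effect held equal in M0 and M1 (1 residual degree of freedom, added after the data were seen), passed 4 of 11574 genes (0.0346%). For Scd4 the term was -2.88 on the log2 scale. The effect held equal was not equal for Scd4, with log2 ratios of 2.02 in the untreated state and -0.40 in the M1 state (53 and 45 counts). The others, named after their values were seen, were Mir682, H2-T3 and Gbp2, with terms of -2.47, -4.53 and 2.27. Gbp2, an interferon-induced GTPase, had 35 and 34 counts in M2 and RM2. In M1 and RM1 it had 6032 and 726, so its term rests on the M1 state. H2-T3 had 41 and 7 counts in M2 and RM2, and 11 and 52 in M1 and RM1. With 0 counts in M0 and in RM0, the effect held equal for H2-T3 rests on the M1 state as well. Mir682 had 301 and 145 counts in M2 and RM2, 424 and 1395 in M0 and RM0, and 297 and 747 in M1 and RM1. Plxna4, a semaphorin receptor subunit, had 17 and 53 counts (1.55, adjusted p = 0.0215).

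**Figure D5:**
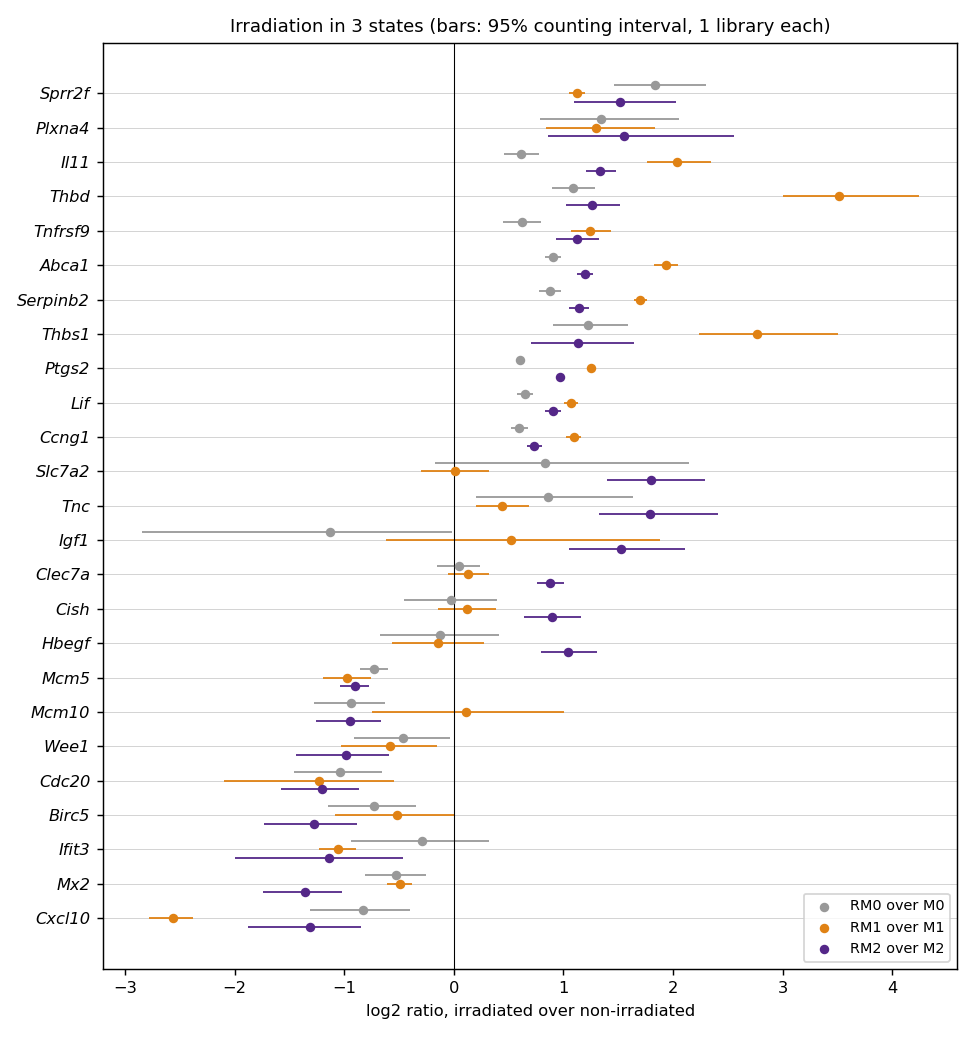
Log2 ratio of irradiated over non-irradiated cells (horizontal axis) for 25 genes in 3 states, RM0 over M0 (grey), RM1 over M1 (orange) and RM2 over M2 (purple), with bars for the 95% counting interval of 1 library against 1. Il11, Thbd and Abca1 are above 0 in the 3 states, Slc7a2, Igf1, Clec7a, Cish and Hbegf are highest in RM2, and Mcm5, Cdc20 and Mx2 are below 0 in the 3 states.

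Antiviral genes that interferon induces were lower in RM2. Of 62 measured genes 56 had a log2 ratio below 0 and the median was -0.30. At 2-fold 4 were lower, against 0.932% of all genes, and at 1.5-fold 11, against 3.85%. At both folds 0 were higher. Mx2, an antiviral GTPase, had 241 counts in M2 and 91 in RM2 (-1.35, interval -1.74 to -1.02). Cxcl10, the interferon-induced chemokine of T cells, had 120 and 46 counts (-1.31, interval -1.88 to -0.85). Ifit3, which binds viral RNA, had 52 and 22 counts (-1.13, interval -2.00 to -0.46), and its neighbour I830012O16Rik had 14 and 4 (-1.37). This neighbour passed the count filter through M2 alone (interval -3.84 to -0.10). Abundant members, named after their values were seen, differed by less, as Isg15, a ubiquitin-like modifier, had 2586 and 1543 counts (-0.71) and Irf7, the interferon amplifier, had 4470 and 3050 (-0.52).

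The medians of this list were -0.15 in the untreated state and -0.40 in the M1 state. Cxcl10 had log2 ratios of -0.83 and -2.57 there, and its shared effect passed the test with an adjusted p of 0.0215, the only member to do so. With DESeq2 its adjusted p was 0.0957. Genes for sensing of nucleic acids in the cytosol were less displaced, with 15 of 20 below 0, a median of -0.15 and none past 1.5-fold.

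The interferon-stimulated response element was searched as GAAA, any 2 bases and GAAA again, on either strand, and was in 2.98% of all windows. The windows of Cxcl10 (chr5:92348890-92349139, minus strand) and Ifit3 (chr19:34583279-34583528, plus strand) are shown to give the letters before the starts of a lower chemokine and a lower antiviral gene. They were chosen after their values were seen, and matches are in capitals. A share over the list is not given, since only 49 of its 62 genes had a window.
Cxcl10: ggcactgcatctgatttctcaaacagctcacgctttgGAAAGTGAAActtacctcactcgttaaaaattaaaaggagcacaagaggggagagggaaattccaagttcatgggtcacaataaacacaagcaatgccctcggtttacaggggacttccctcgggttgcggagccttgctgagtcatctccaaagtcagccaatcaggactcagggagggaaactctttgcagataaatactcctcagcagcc
Ifit3: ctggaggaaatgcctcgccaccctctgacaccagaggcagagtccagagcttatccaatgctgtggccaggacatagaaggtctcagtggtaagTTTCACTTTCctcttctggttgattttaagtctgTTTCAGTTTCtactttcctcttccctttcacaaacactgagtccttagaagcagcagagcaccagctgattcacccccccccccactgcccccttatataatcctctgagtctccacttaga

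Cxcl10 held a match 213 to 204 bases before its start. Ifit3 held a pair of matches on the reverse strand, 156 to 147 and 122 to 113 bases before its start.

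Genes of MHC class I processing lay below 0 in 22 of 25 cases, with a median of -0.24 and none at 2-fold. Psmb9, a subunit of the immunoproteasome, had 200 and 121 counts (-0.68, interval -1.03 to -0.36). Tap1, a subunit of the peptide transporter, had 1427 and 997 counts (-0.48, interval -0.60 to -0.37). In the M1 state the list had a median of -0.69, and in the untreated state of -0.02. With the GC trend removed the median in the M2 state was -0.15. Among class II genes Cd74, the invariant chain, had 25262 and 25782 counts (0.06), and H2-Eb1 had 26 and 51 (0.95, interval 0.30 to 1.75).

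Chemokines differed in either direction, with 2 of 15 higher and 2 lower at 1.5-fold, against 3.34% and 3.85% of all genes. Cxcl3, a neutrophil attractant, had 251 and 475 counts (0.95, interval 0.73 to 1.18, adjusted p = 0.00754). Ccl7, a monocyte attractant, had 323 and 550 (0.80, adjusted p = 0.0459). Ccl5 had 773 and 426 counts (-0.82, interval -1.002 to -0.66), while it was level in the untreated state (0.02).

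Genes of exosome formation and release, the process that the study followed, were level. None of 54 measured genes differed 2-fold, 1 was lower and 0 higher at 1.5-fold, and the median was -0.08, with 34 below 0. The lower gene was Atp9a, a lipid flippase with 21 and 12 counts, named after its values were seen. Cd63, an exosomal tetraspanin, had 15544 and 12840 counts (-0.24, interval -0.28 to -0.21). Sdc1, a proteoglycan of vesicle budding, had 371 and 259 (-0.48), and Rab27a, a GTPase of vesicle docking, had 160 and 108 (-0.53). Smpd2, which makes ceramide, had 167 and 117 (-0.47).

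The motor genes Myh10 and Myo5b were near the limit of detection. Myh10, the heavy chain of non-muscle myosin IIB, had 1 count in M2 and 3 in RM2, and Myo5b, an endosomal myosin, had 0 and 2. Both are at or under 3 counts, for which no ratio is read. Among 20 measured myosins Myo3b alone was called, with 11 and 34 counts (1.49).

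Egfr had 0 counts in both libraries and Igf1r had 1 and 0. Myc had 1023 and 982 counts (-0.03, interval -0.15 to 0.10) and Mycn, its abundant relative in these cells, had 7095 and 5723 (-0.28, interval -0.33 to -0.23). Of 49 genes of ribosome biogenesis and other Myc targets 36 lay below 0, the median was -0.11 and none passed 1.5-fold. Ligands, by contrast, were measured, with Igf1 and Hbegf higher and Egf lower in RM2.

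Several functions showed no member past 1.5-fold. These were the 58 lysosomal genes (median near 0), the 71 nuclear genes of the respiratory chain (-0.09), the 34 proteasome subunits (-0.10) and the 49 genes of the unfolded protein and ATF4 stress response (-0.08). Glycolysis and HIF1A targets (41 genes, -0.02), antioxidant genes of the NRF2 response (26 genes, -0.12), iron handling (17 genes, -0.03) and the BCL2 family with other apoptosis genes (24 genes, -0.03) also had none. Small shifts of whole lists were present, as 55 of the 71 respiratory genes and 29 of the 34 proteasome subunits lay below 0.

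Of 22 toll-like receptor genes 17 had a log2 ratio above 0, against 49.6% of all genes, with a median of 0.18 and none at 2-fold. Tlr8, a sensor of RNA, had 64 and 119 counts (0.90, interval 0.48 to 1.39). Il1rl1, the receptor of IL-33, had 711 and 1038 counts (0.58, interval 0.44 to 0.72), and 290 counts in M0. Of 31 Fc receptors, lectins and scavenger receptors 4 were higher and 0 lower at 1.5-fold, against 3.34% and 3.85% of all genes. Clec7a and Cd36 were among the higher ones. In this list 1 gene passed the count filter through RM2 alone. Olr1, the receptor LOX-1 of oxidized LDL, had 35 and 70 counts (0.99, interval 0.43 to 1.66).

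Some of the largest ratios belong to genes whose reads may come from near-identical copies elsewhere in the genome. Rpl17 had 1131 and 2825 counts (1.35), Rps2 had 511 and 161 (-1.62) and Ppia, cyclophilin A, had 9498 and 3999 (-1.22). The ribosomal protein genes as a list were level, with 1 of 77 higher, 1 lower and a median near 0. Ppia had 3813 and 3677 counts in M0 and RM0, so M2 was the library that stood apart. The values of these 3 genes are uncertain for this reason. The remaining genes among the highest 15 were Gm15421, Lipn, a lipase, and Gstt4, a glutathione transferase, with log2 ratios of 1.67, 1.46 and 1.35. Among the lowest 15 were also Gm15441 (-1.05), Cep131 (-1.05), Chtf18 (-1.02) and Prr11 (-1.02).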

How the data were processed

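RNA was pooled from 5 wells per condition of RAW264.7 cells, and 1 library was sequenced for each of 6 conditions. The authors deposited raw counts per RefSeq gene on mm10, without normalization. The submitters' processing notes name Trimmomatic 0.36, HISAT2 2.2.1 and HTSeq 0.11.3; strand and multi-mapping settings are not given in the sources used here. The authors' GO and annotation columns were not used, and 27 symbols turned into dates were restored from the gene identifiers.

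Counts were scaled with TMM (edgeR 4.0.16, R 4.3.3) over 6 libraries, with factors of 1.134 for M2 and 1.093 for RM2, from genes with at least 10 counts in 3 libraries or more. Log2 ratios used a prior count of 2. A gene was measured with at least 10 counts in M2 or RM2 and called at 2-fold. Samples were grouped by their titles and treatment labels. With 1 library per group RM2 against M2 has no test. Whether M0, M1 and M2 share an irradiation effect was examined with a quasi-likelihood model in edgeR that has terms for state and irradiation (Benjamini-Hochberg threshold 0.05). A term for irradiation of the M2 state alone was added to this model after the data were seen. Intervals at 95% are exact Clopper-Pearson intervals, and those of differences between states are normal approximations. They cover counting error only. Library totals ranged from 17894937 to 18870516 counts. At this depth a count of 0 allows up to 3 counts.

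GC content came from GENCODE M21 transcripts, and promoter windows from RefSeq (GRCm38.p6), matched by gene symbol after gene identifier, with the window nearest to the listed start. The authors' gene coordinates are printed as deposited, on mm10.

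The 62 gene lists (1895 genes, 1887 found) and the genes named were chosen with earlier results of these data known. The rule took the 15 highest and 15 lowest log2 ratios among genes with at least 100 counts in M2 or RM2. It also took the called members of each list, filled to 4 per list by size of the ratio among those with at least 50 counts, and 16 genes fixed by name. Alternatives were DESeq2 (1.42.0) size factors and test, library totals, TMM over M2 and RM2 only, a prior count of 0.25, other filters and folds, removal of the GC trend and each state left out. Intervals, tables and plots were made in Python 3.11.15 (scipy 1.17.1).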

Additional observations from a re-analysis of the deposited data

Results flagged for a closer look

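Among the genes taken by the naming rule, 4 had a 2-fold call in the M2 state opposite to that in the untreated state. These 4 were looked at again. Genes outside that rule were not searched, such as Mir682. It had 301 and 145 counts in M2 and RM2 and 424 and 1395 in M0 and RM0. The values are the log2 ratio of RM2 over M2 minus that of RM0 over M0, with a 95% interval from counting error. The difference between the M2 and untreated states alone was not tested, since it leaves no residual degrees of freedom. An irradiation term of the M2 state alone, against an effect held equal in M0 and M1 (edgeR's quasi-likelihood test with Benjamini-Hochberg adjustment, 1 residual degree of freedom), was added after the data were seen. That term was -2.88 for Scd4 (adjusted p = 0.0156), 2.37 for Timp1 (adjusted p = 0.706), 1.89 for Igf1 (adjusted p = 1) and -0.90 for Gm15441 (adjusted p = 1), on the log2 scale.

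Igf1 gave 2.65 (1.29 to 4.00), from 42 and 122 counts in M2 and RM2 and 18 and 7 in M0 and RM0. Timp1 gave 2.33 (0.48 to 4.18), from 16 and 40 counts and from 11 and 4. Both were higher after irradiation in IL-4 treated cells and lower in untreated cells, at low counts. For Timp1 in untreated cells the interval of the log2 ratio was -3.55 to 0.31, which includes 0. In M1 and RM1 Timp1 had 280 and 163 counts, a log2 ratio of -0.95.

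Scd4 gave -3.91 (-4.67 to -3.16), from 116 and 29 counts in M2 and RM2 and 43 and 179 in M0 and RM0. In M1 and RM1 Scd4 had 53 and 45 counts, and the M2 state minus the M1 state gave -1.50 (-2.32 to -0.68). Gm15441 gave -2.20 (-2.69 to -1.71), from 223 and 104 counts and from 91 and 202. With the GC trend removed the log2 ratio of Gm15441 in the M2 state was -0.99, under 2-fold. Both were lower after irradiation in IL-4 treated cells and higher in untreated cells.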

How the results depend on the processing

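The number of genes called in RM2 against M2 was 232. It was 67 with at least 50 counts, 510 without a filter on low counts, 848 at 1.5-fold and 12 at 4-fold, and it stayed within 1.5 times of 232 under DESeq2's size factors (220), library totals (247), TMM over M2 and RM2 only (236), a prior count of 0.25 (310) and removal of the GC trend (227). The number passing the shared-effect test was 55. It was 115 with DESeq2, 134 without the filter, 129 without M0 and RM0 and 523 without M1 and RM1, and 78 without M2 and RM2. The cause was not tested, except that fewer or more genes were eligible under the filters and folds. Scaling by library totals moved the median of all genes from near 0 to -0.05 on the log2 scale.

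Of the 231 log2 ratios of named genes, removal of the GC trend moved 52 and library totals moved 20 by more than their counting error, and none changed sign where called. Of the 60 named genes called at 2-fold library totals took 3 below it, and removal of the GC trend took 6 of 59. Of 24 named genes past the shared-effect threshold 3 missed it with DESeq2 (Thbd, adjusted p = 0.262; Lars2, 0.206; Cxcl10, 0.0957) and 4 without M2 and RM2. For RM2 against M2 no paired analysis was possible because each has 1 library and the labels give no replicate numbers, while the shared-effect model already holds the state as a block. Ratios of genes with under 50 counts are limited by depth, and 53 of the 232 called genes had a counting interval that includes 0.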
